A study of Canis lupus familiaris with 14 samples.

Results

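PIEZO2 (ENSCAFG00000018761), the gene of a mechanically gated ion channel, was followed as a single row of the count table, 1 gene of the 30951 listed and of the 27655 with at least 1 count. The gene was chosen by its measured levels, namely its paired change between bone and tumor and its relation across the tumors to COL11A1 (ENSCAFG00000019985) and MKI67 (ENSCAFG00000013255). Its levels, its paired change and those relations are therefore given as a description, with no test. Tests on PIEZO2 are given only for its relations across the bones and for the limb of the tumor. The choice used neither of these, though it used the PIEZO2 levels that enter the tests.

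PIEZO2 forms a channel in the plasma membrane that opens when the membrane is stretched or indented and lets cations, calcium among them, into the cell. It is best known from sensory neurons and Merkel cells, where it serves touch and the sense of limb position, whereas its relative PIEZO1 is the family member mainly studied in bone-forming cells. COL11A1 encodes the alpha 1 chain of type XI collagen, a minor fibril collagen of cartilage and tumor stroma, and MKI67 encodes the nuclear protein Ki-67 of dividing cells.

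Polyadenylated RNA was sequenced from 7 pet dogs, A to G, whose limbs had been amputated for osteosarcoma, with a bone library and a tumor library from each. Bone was the second phalanx (P2) of the amputated limb in every dog, at a distance from the tumor. The tumors were taken before any chemotherapy. The study asks which genes differ between tumor and patient-matched bone, in the dogs as a group and in each dog.

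The tumor lay in the left distal radius of dog A (Golden Retriever), the left distal femur of dog B (Rottweiler) and the left distal radius of dog C (Doberman Pinscher). It lay in the left proximal humerus of dog D (Greyhound), the left distal radius of dog E (labelled Great Pyranees), the right distal radius of dog F (Golden Retriever) and the right distal tibia of dog G (Greyhound). Bone and tumor also differed in skeletal site and in how RNA was extracted, so tissue, site and extraction cannot be told apart. By the study's account the phalanges had been freed of marrow and of cells outside the mineralized matrix, whereas tumor pieces could hold a mixture of cells, so preparation is confounded with tissue too. In bulk tissue, fewer cells of a type and less RNA per cell cannot be told apart either.

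Total counts were 18650945 to 34479429 per library. In 4 libraries, the bone of dog E and the tumors of dogs A, E and G, the 10 most counted genes took 30.0% to 47.2% of all counts and the TMM factor was 0.641 to 0.772. TMM, the trimmed mean of M-values, is the scaling that corrects library totals for such genes. In the other 10 libraries the share was 8.43% to 22.2% and the factor 1.01 to 1.30. The study names the tumor of dog A and the bone of dog B as its libraries of lowest RNA integrity. The bone label was checked against osteocyte markers, whose summed level was 273 to 4649 in bone, in counts per 1000000 counts of a TMM-scaled library (CPM), and 3.90 to 467 CPM in tumor for the 5 genes measured.

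Reads of PIEZO2 were found in each of the 14 libraries, and in 7 of 7 dogs the tumor had more PIEZO2 than the phalanx. Its level in the bones of dogs A to G, in that order, was 5.98, 7.76, 10.6, 14.5, 16.4, 8.74 and 24.4 CPM. Its level in their tumors was 136, 41.7, 30.8, 24.9, 81.9, 20.7 and 125 CPM. The tumors of dogs A, G and E were high, the other 4 tumors lay nearer to bone, and the groups overlapped, since the bone of dog G exceeded the tumor of dog F.

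The mean level was 12.6 ± 6.38 CPM in bone and 65.9 ± 48.7 CPM in tumor (SD, n = 7 each). The medians were 10.6 and 41.7 CPM. These values rest on 185 to 859 reads per bone library and 692 to 3047 reads per tumor library, so that counting error is small beside the spread between dogs.

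**Figure D1:**
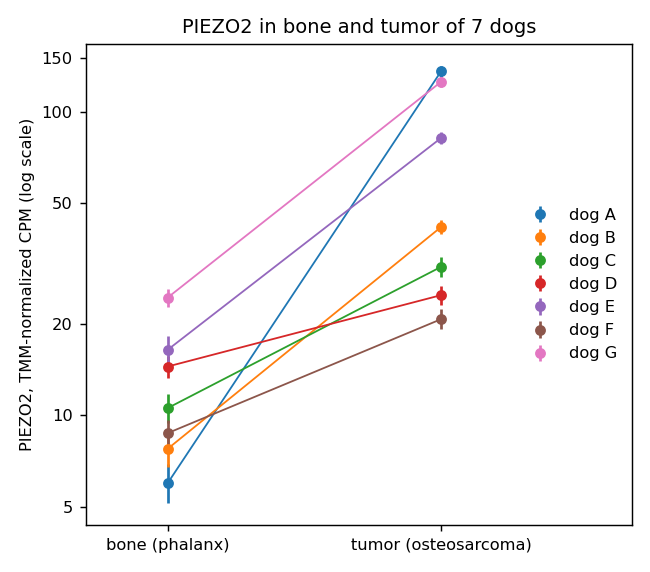
PIEZO2 level (TMM CPM, log axis) in the bone and the tumor of each of 7 dogs, with a line joining the libraries of 1 dog and bars for the 95% counting interval (exact Poisson). Every line rises, from 1.72-fold in dog D to 22.7-fold in dog A, and the bone of dog G (24.4 CPM) lies above the tumor of dog F (20.7 CPM).

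The paired change differed widely between dogs. The level in tumor was 22.7-fold that in bone in dog A, 5.38-fold in dog B, 5.14-fold in dog G and 4.98-fold in dog E. It was 2.92-fold in dog C, 2.37-fold in dog F and 1.72-fold in dog D. Dog A therefore stood above the rest, with the lowest bone level and the highest tumor level of the series. The 7 paired differences averaged 2.16 ± 1.20 on the log2 scale (SD, n = 7), with a median of 2.31. The edgeR model with dog and tissue gave a log2 fold change of 2.13 (SE 0.39), a 4.36-fold higher level in tumor. It was 1.77 without dog A, and 2.05 when libraries were scaled by their totals alone. The dogs without a library of skewed composition, B, C, D and F, had folds of 1.72 to 5.38.

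In rank order the bones of dogs A, B, F, C, D and E came lowest, followed by the tumor of dog F, the bone of dog G, and the tumors of dogs D, C, B, E, G and A. Neighbours in this order were close at the lower end. The 95% counting intervals (exact Poisson) of the bones of dogs A and B, B and F, F and C, and D and E overlapped, as did those of the bone of dog G (22.8 to 26.1 CPM) and the tumor of dog D (23.2 to 26.7 CPM). These intervals cover counting error only. The widest step between neighbours was the 1.96-fold step from the tumor of dog B to that of dog E. The top place depended on the scaling. The tumor of dog A was 1.08-fold above that of dog G with TMM factors, and with library totals alone dog G (96.8 CPM) lay above dog A (94.3 CPM).

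The spread between dogs was wider in tumor than in bone. The SD of log2 CPM was 0.70 in bone and 1.12 in tumor, and the highest library was 4.09-fold the lowest in bone and 6.55-fold in tumor. Of 14389 genes with a mean of at least 1 CPM, 14.9% had a larger SD than PIEZO2 in bone and 20.1% in tumor. Between bone and tumor of the same dog, Pearson's r was 0.18 and Spearman's rho 0.00 over 7 dogs on the log2 scale, given as a description. Without dogs A and G, the 2 farthest from the median in bone, r was 0.45. This relation was chosen after the levels were seen.

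The level in tumors moved with library composition. The tumors fell into separate clusters by TMM factor, so no correlation over all 7 is given for it. The tumors of dogs A, E and G, with factors of 0.695 to 0.772 and shares of 30.0% to 42.4% in the 10 most counted genes, had 81.9 to 136 CPM of PIEZO2. The other 4 tumors, with factors of 1.15 to 1.24 and shares of 12.1% to 14.1%, had 20.7 to 41.7 CPM. With library totals in place of TMM factors, the PIEZO2 ranges were 59.1 to 96.8 CPM and 23.9 to 49.8 CPM, still without overlap. The part of composition in the PIEZO2 level was not tested. Correlations of PIEZO2 with listed genes over the tumors, given below, use TMM factors, and the part of composition in them was not tested either.

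**Figure D2:**
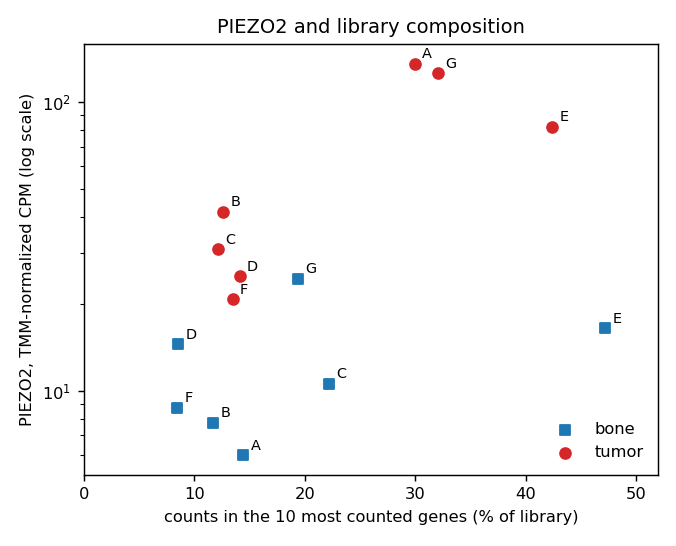
PIEZO2 level in the 14 libraries (TMM CPM, log axis) against the percent of counts in the 10 most counted genes of each library. The tumors of dogs A, E and G lie at 30.0%, 42.4% and 32.0% and hold the highest PIEZO2 levels, whereas the bone of dog E lies at 47.2% with 16.4 CPM.

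The bone of dog E had the largest share of counts in few genes, at 47.2%, together with 16.4 CPM of PIEZO2, the second of the bones. The level in that library was 10.5 CPM with library totals alone, below the bones of dogs G, D, F and C.

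COL11A1, the collagen gene named in the choice of PIEZO2, was higher in the tumor of 6 of 7 dogs. Its level was 30.5, 17.7, 31.7, 24.2, 91.4, 27.3 and 42.2 CPM in the bones of dogs A to G, and 363, 236, 16.8, 377, 1202, 178 and 656 CPM in their tumors. Dog C was the exception, with a tumor level 0.53 times that of bone, while the other 6 dogs were 6.52-fold to 15.6-fold higher in tumor. The log2 fold change was 3.17 (SE 0.58), with an FDR of 0.0157 by the edgeR test. The FDR rose to at most 0.0523 without dog A or dog G, where the call was lost.

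MKI67 was higher in the tumor of 7 of 7 dogs, with no overlap between the groups. Its level was 17.2, 5.76, 13.9, 14.4, 12.1, 15.0 and 9.58 CPM in the bones of dogs A to G, and 108, 123, 129, 73.7, 37.6, 244 and 72.0 CPM in their tumors. The log2 fold change was 3.02 (SE 0.33), with an FDR of 0.00286 by the edgeR test.

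Across the 7 tumors PIEZO2 ran loosely with COL11A1 and loosely against MKI67. For COL11A1, r was 0.53 and rho was 0.50 on the log2 scale, and r was 0.70 without dogs C and E, whose COL11A1 levels were farthest from the median. With library totals alone r was 0.33. For MKI67, r was -0.52 and rho was -0.57, and r was -0.18 without dogs E and F, so the inverse relation does not hold without them. It was -0.27 without dog F alone and -0.50 without dog E alone, -0.69 without dog A or without dog D, and -0.66 with library totals alone. The tumor of dog E had the most COL11A1, the least MKI67 and a high PIEZO2 level, and that of dog F had the most MKI67 and the least PIEZO2. Because these relations were used to choose the gene, no p is given for them.

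The choice used the PIEZO2 levels in bone but not their relation to COL11A1 and MKI67 across the bones. Over the 7 bones PIEZO2 and COL11A1 had r = 0.55 (exact permutation p = 0.214, adjusted over 2 relations 0.429) and rho = 0.61 (exact permutation p = 0.167, adjusted 0.333). Without dogs B and E r was 0.50, and with library totals alone it was 0.26 (exact permutation p = 0.574). PIEZO2 and MKI67 had r = -0.14 (exact permutation p = 0.732, adjusted 0.732) and rho = -0.43 (exact permutation p = 0.354, adjusted 0.354). Neither passed the threshold. The value for MKI67 was set by single bones. It was -0.94 without dog B, 0.16 without dog A and 0.06 without dog G, and -0.90 without dogs B and G.

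**Figure D3:**
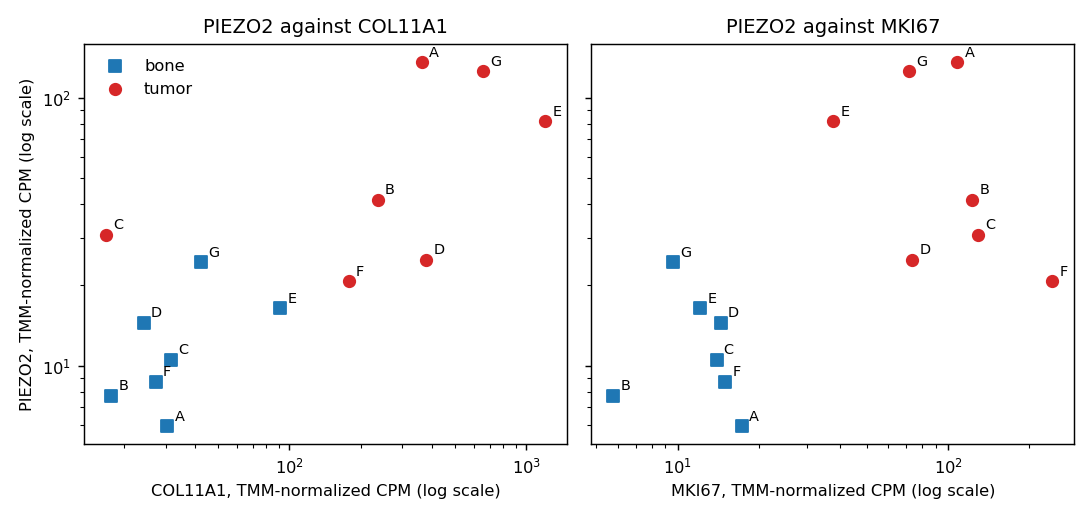
PIEZO2 level against COL11A1 (left) and MKI67 (right) in the 7 bones and the 7 tumors (TMM CPM, log axes), each point labelled by its dog. On the log2 scale, r over the tumors is 0.53 with COL11A1 and -0.52 with MKI67, and over the bones 0.55 and -0.14, with the tumor of dog C low in COL11A1 and the bone of dog B low in MKI67.

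The site of the tumor was not used in the choice either, though the PIEZO2 levels were. PIEZO2 ranged from 20.7 to 136 CPM in the 5 forelimb tumors and from 41.7 to 125 CPM in the 2 hindlimb tumors. The hindlimb mean was 0.70 higher on the log2 scale (exact permutation p = 0.524, adjusted over 2 tissues 0.571). In the phalanges of the same limbs PIEZO2 ranged from 5.98 to 16.4 CPM in forelimbs and from 7.76 to 24.4 CPM in hindlimbs, a mean difference of 0.38 (exact permutation p = 0.571, adjusted 0.571). All tests were two-sided, and the smallest p that 5 dogs against 2 allow is 0.0476. Both differences changed sign without dog G, to -0.10 and -0.44.

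Other mechanosensitive channels were looked up next. Of 26 listed channel genes, 3 could be paired with an identifier. PIEZO1 is not analysed here, nor are the 3 listed PIEZO-binding genes. By the edgeR test at an FDR under 0.05, 2 of the 3 were lower in tumor and none was higher. Of the 27655 genes tested, 3.90% were called, 1.76% higher and 2.14% lower. Among the 2292 genes with a name the share was 42.8%, with 20.3% higher and 22.5% lower, because names came from tables that favour genes called by the study. Counts of listed genes below are to be read against the latter share. In those counts, rose and fell mean called higher and called lower.

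TMEM150C, which encodes tentonin, a membrane protein linked to mechanically activated currents, fell in 7 of 7 dogs. Its level was 33.7, 41.5, 42.5, 58.6, 44.8, 50.5 and 32.9 CPM in the bones of dogs A to G and 9.83, 9.21, 13.5, 5.14, 15.2, 2.42 and 18.0 CPM in their tumors, with no overlap. The log2 fold change was -2.23 (SE 0.41), with an FDR of 0.0158 by the edgeR test. Over the tumors it ran with PIEZO2 (r = 0.71), the tumors of dogs G and E being high for both, although its change from bone was in the other direction. The tumor of dog A, the highest for PIEZO2, had less TMEM150C (9.83 CPM) than that of dog C (13.5 CPM). The other 2 channel genes had r = -0.36 (TMC2) and -0.20 (KCNK2).

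TMC2, a part of the transduction channel of inner-ear hair cells, was close to the limit of detection. Its level was 0.109 to 1.32 CPM in bone, and it had no read in the tumors of dogs A, B, C and E and at most 0.317 CPM in the other 3. The log2 fold change was -4.07 (SE 0.89, edgeR FDR 0.0335), and the call was lost without dog A, B, C, E, F or G, at an FDR of up to 0.0748.

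KCNK2, the stretch-sensitive potassium channel TREK-1, was not called, with 6.98 to 15.9 CPM in bone and 1.11 to 19.6 CPM in tumor. Its log2 fold change was -1.46 (SE 0.48, edgeR FDR 0.129), and without dog D, whose tumor was the highest, the FDR was 0.0216.

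**Figure D4:**
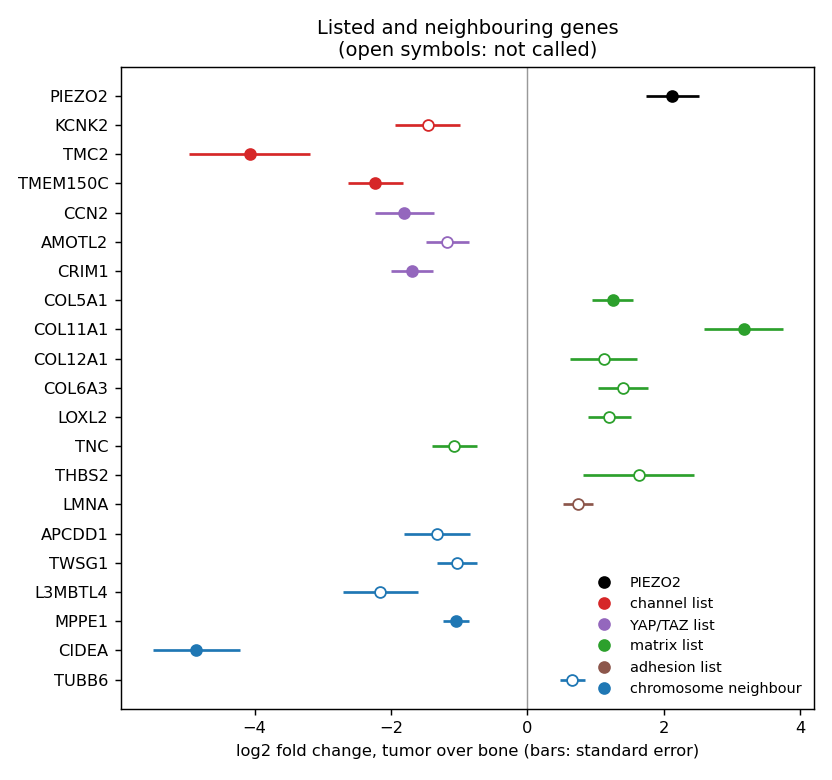
Log2 fold change, tumor over bone, with its standard error (edgeR) for PIEZO2, the listed channel, YAP/TAZ, matrix and adhesion genes and the 6 chromosome neighbours, filled where the FDR is under 0.05. PIEZO2 (2.13) lies to the right of zero and the 3 other channel genes lie to the left, from -4.07 to -1.46.

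YAP and TAZ are transcriptional co-activators that respond to tension on the cell, and 3 of 15 listed genes of their pathway could be paired. Of these, 2 fell and none rose. CCN2, the matrix protein also called CTGF, had 253 to 554 CPM in bone and 30.2 to 346 CPM in tumor, and it fell in 7 of 7 dogs. Its log2 fold change was -1.80 (SE 0.43, edgeR FDR 0.0482), and the call was lost without dog A, B, D, E, F or G, at an FDR of up to 0.119, and also with DESeq2 size factors or upper-quartile factors.

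CRIM1, a membrane protein that binds bone morphogenetic proteins, had 98.9 to 203 CPM in bone and 15.5 to 117 CPM in tumor. Its log2 fold change was -1.69 (SE 0.31, edgeR FDR 0.0164), and over the tumors it ran with PIEZO2 (r = 0.82), against r = 0.24 for CCN2 and 0.32 for AMOTL2. AMOTL2, which binds YAP, was not called (log2 fold change -1.17, edgeR FDR 0.0705). LMNA, a protein of the nuclear lamina and the 1 gene of 25 in the adhesion and actomyosin list that could be paired, was not called (log2 fold change 0.74, edgeR FDR 0.0946).

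Of 19 genes for fibril collagens and matrix, 7 could be paired, and 2 of them rose and none fell. These were COL11A1 and COL5A1, a chain of type V collagen. COL5A1 had 385 to 4045 CPM in bone and 1280 to 5029 CPM in tumor, with a log2 fold change of 1.25 (SE 0.30, edgeR FDR 0.0477). The call was lost without dog A, B, D, E, F or G, at an FDR of up to 0.134, and also with upper-quartile factors or no dog in the model. Over the tumors PIEZO2 correlated positively with 6 of the 7, from r = 0.22 for COL12A1 to 0.83 for LOXL2, an enzyme that cross-links collagen, and at r = -0.21 with the matrix glycoprotein TNC. COL11A1 (r = 0.53) lay within that range. Its relation was used to choose PIEZO2, so the count of 6 is not independent of the choice.

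Of 12 proliferation genes, 11 could be paired and all 11 rose, with log2 fold changes of 2.24 to 3.25 and a median of 2.62, where the median over all genes tested was -0.05. The largest were in TOP2A (3.25, SE 0.35), a topoisomerase of dividing cells, MKI67, and BUB1 (2.83, SE 0.33), a kinase of the spindle checkpoint, with edgeR FDRs of 0.00281, 0.00286 and 0.00321. Over the tumors each of the 11 ran against PIEZO2, from r = -0.86 for KIF11, a spindle motor, to r = -0.18 for TOP2A. MKI67 is among them and its relation was used to choose PIEZO2, and genes of the cell cycle tend to move together, so the choice favours this direction. The 11 genes share the same 7 libraries, and the tumor of dog F was the highest for each of them.

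Few markers of the cells in which PIEZO2 is best known could be paired with an identifier. Of 18 sensory neuron genes, 2 could be paired. UCHL1, a neuronal deubiquitinase, rose in 7 of 7 dogs, from 4.12 to 9.04 CPM in bone to 17.9 to 121 CPM in tumor (log2 fold change 2.76, SE 0.36, edgeR FDR 0.00473), and ran weakly against PIEZO2 in tumors (r = -0.37). NTRK2, the receptor of brain-derived neurotrophic factor, was not called (log2 fold change -2.71, SE 1.05, edgeR FDR 0.202). It had 13.9 to 45.8 CPM in bone and was higher in tumor in 2 of 7 dogs. Its tumor levels in dogs A to G were 26.2, 2.81, 0.312, 1.02, 19.8, 1.28 and 24.4 CPM, high in the 3 tumors that were high for PIEZO2 (r = 0.92). Those are also the 3 tumors of skewed composition. ISL1, the 1 of 7 Merkel cell genes that could be paired, was not called and had no read in 4 bones and 1 tumor.

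Of 8 Schwann cell genes, 6 could be paired, and 3 fell and none rose. Their summed level was 203 to 402 CPM in bone and 55.4 to 148 CPM in tumor, and NCAM1 alone took most of it in every bone. CDH19, a cadherin of Schwann cell precursors, had 0.951 to 4.36 CPM in bone and at most 0.251 CPM in tumor (edgeR FDR 0.00865). S100B, a calcium-binding protein of glia, had 3.35 to 33.6 CPM in bone and 0.571 to 2.61 CPM in tumor (log2 fold change -3.45, SE 0.60, edgeR FDR 0.0135). NCAM1, a cell adhesion molecule that Schwann cells share with other cells, had 111 to 280 CPM in bone and 12.1 to 105 CPM in tumor (edgeR FDR 0.00702).

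SOX10, the transcription factor of this lineage, was at 3.38, 0.309, 0, 0.0635, 1.56, 0.388 and 1.81 CPM in the tumors of dogs A to G, with its higher values in dogs A, G and E, as for PIEZO2 (r = 0.85, edgeR FDR 0.0800 against bone). The 6 Schwann cell genes had r = -0.51 to 0.85 with PIEZO2 over the tumors, the lowest in NCAM1. The part of neural cells in the PIEZO2 level was not tested.

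Cell type markers in bone also depend on the marrow-depleted preparation of the phalanges, and that part cannot be told apart. None of the paired osteoblast, osteocyte, osteoclast and adipocyte genes was called higher in tumor. Of the osteoblast list, 3 of 4 paired genes fell: SPP1 (log2 fold change -2.68) and BGLAP (-2.64), which encode proteins of mineralized matrix, and DLX5 (-1.51), an osteoblast transcription factor. The calls of SPP1 (without dog A, C, D or G) and DLX5 (without dog A, B, D or G) were lost, at edgeR FDRs of up to 0.0770 and 0.0629. Of the osteocyte list, 2 of 5 were called lower, SOST (-6.93), a Wnt inhibitor of osteocytes, and MEPE (-7.39), a matrix phosphoglycoprotein. The log2 fold changes of all 5 were negative, from -7.39 to -2.33, and DMP1 lay just past the threshold (-3.73, edgeR FDR 0.0516). The call of MEPE was lost without dog G (edgeR FDR 0.0517). Of the osteoclast list, 1 of 6 fell, the calcitonin receptor CALCR (-4.79).

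The adipocyte list fell in 4 of 4 genes, with the lipid droplet proteins CIDEC (log2 fold change -5.06) and PLIN1 (-4.62) and the fatty acid carrier FABP4 (-4.57) changing most. The 1 paired endothelial gene, ESM1, fell (-3.64). Of 3 paired chondrocyte genes, the cartilage matrix protein CHAD fell (-3.69), a call lost without dog A, C, E, F or G, at an edgeR FDR of up to 0.0830. None of the 3 fibroblast and tendon genes and the 1 muscle gene was called, and no macrophage or T cell gene could be paired. Over the tumors the genes of these lists ran with PIEZO2 to very different degrees. The 5 osteocyte genes had r = -0.42 to 0.97, the highest in FGF23, a phosphate-regulating hormone. The 3 fibroblast and tendon genes had r = -0.38 to 0.89, the highest in the platelet-derived growth factor receptor PDGFRB. The 3 chondrocyte genes had r = -0.06 to 0.88, the highest in COL9A1, a cartilage collagen. None of these 3 genes was called. FGF23 was at most 2.02 CPM in every tumor, and COL9A1 had 36.3 CPM in the tumor of dog A and 14.4 CPM in that of dog E, less in that of dog G and at most 0.349 CPM in the other 4.

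The genes most like PIEZO2 were sought by the correlation of log2 CPM over the 14 libraries after the mean of each tissue was subtracted, so that the change between tissues played no part. Among 2100 named genes with a mean of at least 1 CPM, the 10 closest had r = 0.84 to 0.91, and the 11th had r = 0.839. They were SPTBN1 (beta spectrin, r = 0.91), LIMS2 (a focal adhesion adaptor, 0.90), COL4A5 (a basement membrane collagen, 0.88), LRP5 (a Wnt co-receptor that sets bone mass, 0.87) and HPD (an enzyme of tyrosine breakdown, 0.86). The other 5 were NAV1 (a microtubule-binding protein, 0.85), ABLIM3 (an actin-binding protein, 0.85), FGF1 (a growth factor, 0.84), FGD5 (an endothelial exchange factor of Cdc42, 0.84) and KLF9 (a transcription factor, 0.84). A further 54 genes without a name had a higher r than the tenth, up to 0.95.

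Taken by tissue, r was 0.88 to 0.97 in tumors and 0.58 to 0.82 in bones. The measure that chose the genes gives tumors more weight, because PIEZO2 varied more there, so a higher r in tumors is not a separate result. In 9 of the 10 genes the 3 highest tumors were those of dogs A, E and G, which are also the 3 of skewed composition and the 3 highest for PIEZO2, an order that the choice of genes favours. The part of composition in this likeness was not tested. With variance-stabilized counts 6 of the 10 recurred, and with library totals alone 5.

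Among these 10 genes LIMS2 followed PIEZO2 most closely in tumors (r = 0.97), at 62.4, 12.5, 10.5, 8.13, 35.1, 2.63 and 55.8 CPM in dogs A to G. In bone it had 35.4 to 56.9 CPM in 6 dogs and 107 CPM in dog G, the bone that was also highest for PIEZO2. HPD, the fifth in this order, had 0.166 to 0.995 CPM in bone and 11.6, 1.12, 0.223, 0.667, 5.31, 0.656 and 16.5 CPM in the tumors of dogs A to G. It was higher in the tumor of 7 of 7 dogs but was not called (log2 fold change 2.41, SE 0.72, edgeR FDR 0.0998), and it was called with limma-voom, the DESeq2 Wald test or no dog in the model.

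The 10 genes differed in their change from bone. Their calls are to be read against the share among named genes, 42.8%, with 20.3% higher and 22.5% lower. By the edgeR test, NAV1 was the only 1 of them called higher (log2 fold change 0.77, SE 0.18, FDR 0.0460), and the call was lost without any 1 of the 7 dogs, at an FDR of up to 0.119, and with upper-quartile factors, library totals alone or no dog in the model. SPTBN1 (-1.16, FDR 0.0296), LRP5 (-1.26, FDR 0.0135), FGD5 (-1.01, FDR 0.0427) and KLF9 (-1.31, FDR 0.0334) were called lower. Of these calls that of LRP5 held without each dog. The call of SPTBN1 was lost without dog B, C, D, E, F or G (FDR up to 0.0759), as was that of FGD5 (FDR up to 0.104), which upper-quartile factors also ended, and that of KLF9 without dog B, C, D or F (FDR up to 0.0899). The remaining 5 were not called.

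**Figure D5:**
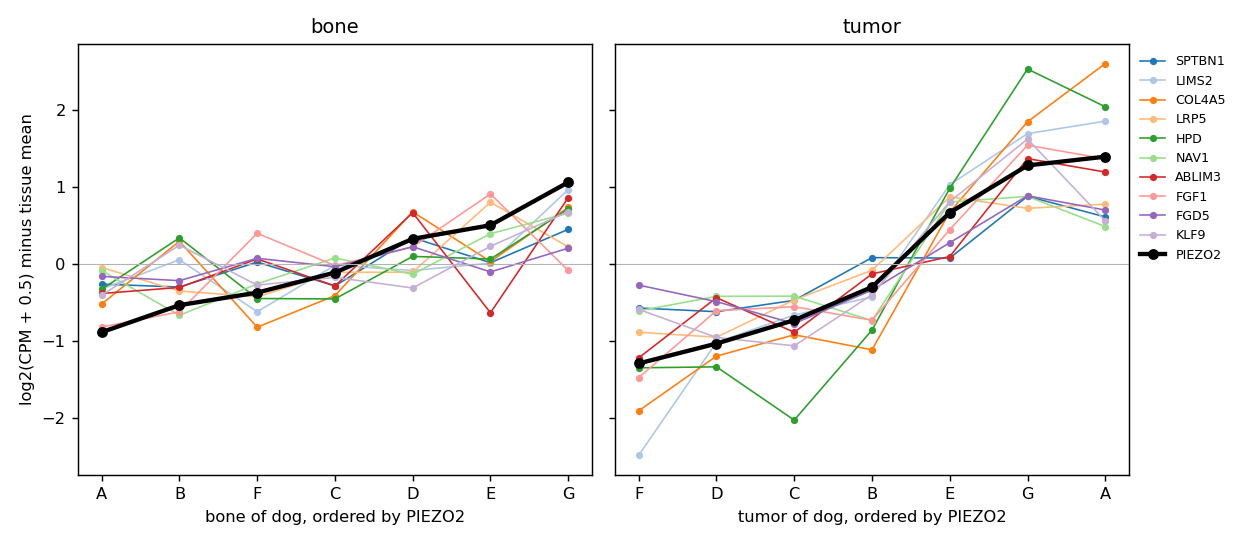
Levels of PIEZO2 and of the 10 named genes with the closest within-tissue pattern in the 14 libraries, drawn as log2(CPM + 0.5) minus the mean of the tissue, with the dogs of each panel ordered by PIEZO2. The tumors of dogs A, E and G stand high in PIEZO2 and in 9 of the 10 genes.

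Genes beside PIEZO2 on the chromosome were taken from the order of genes on chromosome 7 of the assembly UU_Cfam_GSD_1.0. The counts were made on CanFam3.1, so distances were not used, only the order of genes and, for PIEZO2, the overlap of spans. Of the 3 nearest named and counted genes on each side, 2 were called lower and none higher by the edgeR test. Among the 2292 genes with a name 42.8% were called, with 22.5% lower, and genes without a name were passed over. On the near side in that order, APCDD1, a Wnt inhibitor (log2 fold change -1.32, edgeR FDR 0.170), TWSG1, which binds bone morphogenetic proteins (-1.03, FDR 0.0852), and L3MBTL4, a chromatin protein (-2.16, FDR 0.0603), were not called. L3MBTL4 was lower in the tumor of 7 of 7 dogs and was called with filterByExpr, the DESeq2 Wald test or no dog in the model. APCDD1 and TWSG1 were called with the DESeq2 Wald test, and APCDD1 also without dog F.

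On the far side MPPE1, a phosphoesterase of GPI-anchor remodelling, fell in 7 of 7 dogs, from 27.4 to 36.1 CPM in bone to 10.4 to 22.7 CPM in tumor. Its log2 fold change was -1.04 (SE 0.19, edgeR FDR 0.0175), and the call was lost without dog G (FDR 0.0503). Over the tumors it ran against PIEZO2 (r = -0.91), the tumors of dogs G, A and E being the lowest, and the other 5 neighbours had r = -0.72 to 0.12. CIDEA, a lipid droplet protein, fell (-4.86, edgeR FDR 0.00474), and TUBB6, a beta tubulin, was not called (0.66, edgeR FDR 0.0815), though its level was higher in the tumor of 7 of 7 dogs and it was called with filterByExpr, limma-voom, the DESeq2 Wald test or no dog in the model. In that assembly 2 long non-coding RNA genes overlap the span of PIEZO2. Whether the counting used strand is not given in the sources used here, so reads of overlapping genes on opposite strands might not be told apart.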

How the data were processed

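Polyadenylated RNA from bone and tumor of 7 dogs was sequenced as paired-end reads, with 1 library per dog and tissue. Spread between dogs therefore holds biological and technical variation. The authors trimmed the reads, aligned them to CanFam3.1 and deposited raw read counts per Ensembl gene, without normalization. The submitters' processing notes name Trimmomatic 0.39, HISAT2 2.2.1 and StringTie 1.3.3, and the study's methods give another Trimmomatic version. Strand and multi-mapping settings are not given in the sources used here. All 14 count columns were matched by name to dog and tissue.

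The edgeR quasi-likelihood test (edgeR 4.0.16) with TMM factors was run on the 27655 genes that had any count. The model held terms for dog and for tissue, the p-values were adjusted by Benjamini-Hochberg, and calls were made at an FDR under 0.05. Levels are TMM-scaled CPM. Correlations used log2 CPM with a prior count of 2. On simulated data the share of unchanged genes among the calls was above the nominal FDR, so calls near the threshold are less certain than their FDR states. DESeq2 and limma-voom served as alternatives, beside other scalings, other filters, the omission of each dog and the fit without the dog. Scaling by library totals alone was added after the data were seen.

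Bone and tumor were paired by animal. Deviations of same-dog libraries from their tissue means had r = 0.0730 to 0.164 (median 0.112) over 15566 genes, 6 of 7 over 0.1, against a median of -0.0191 between dogs.

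PIEZO2 and the 19 gene lists (203 symbols, 61 paired with an identifier) were chosen with earlier results of these data known. Named are the channel list, the 3 called genes of largest change in other lists, the 10 genes most like PIEZO2 and 3 neighbours on each side. AMOTL2, LMNA, NTRK2, SOX10, ISL1, KIF11, COL12A1, LOXL2, TNC, FGF23, PDGFRB and COL9A1 fall outside this rule and were picked out with their values in view. The study's supplementary tables gave symbols for 2292 identifiers, so other genes are not analysed here, and some listed genes are not reported here. Sequences were not used here. Coordinates, those of UU_Cfam_GSD_1.0, were used only for the order of the neighbours and for the overlap with PIEZO2.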

Additional observations from a re-analysis of the deposited data

Results flagged for a closer look

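Dixon's criterion, the gap of the highest or lowest library to its neighbour as a share of the range, was applied to 44 groups of 7 values of genes other than PIEZO2, at its 95% critical value. Chance passes it in about 1 in 20 groups, and 3 passed. The bone of dog G stood apart from the other bones in LIMS2 (0.573), the same bone that was highest for PIEZO2. The bone of dog B, at 25.6 CPM, stood below the other bones in TWSG1 (0.821). Dog C stood below the other dogs in the paired change of COL11A1 (0.742), the 1 dog with less COL11A1 in tumor than in bone.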

How the results depend on the processing

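The log2 fold change of PIEZO2 stayed positive under every alternative run, from 2.05 with library totals alone to 2.38 with no replicate block, and from 1.77 (without dog A) to 2.34 (without dog D) with a dog left out. Genes called higher numbered 487, and 842 after filterByExpr, 746 with limma-voom, 919 with no replicate block and 1729 with the DESeq2 Wald test; with a dog left out they numbered 243 to 360. Genes called lower numbered 592, 680 with no replicate block and 2033 with the Wald test, and 343 to 453 with a dog left out. Over the tumors r with COL11A1 was 0.33 with library totals and 0.70 without the 2 farthest tumors, and r with MKI67 was -0.18 without the 2 farthest. Over the bones r with MKI67 was -0.94 to 0.16 with a dog left out. The limb difference was -0.10 to 1.49 in tumor and -0.44 to 1.20 in bone. Of the 10 genes most like PIEZO2, 6 recurred with variance-stabilized counts and 5 with library totals. The cause was not tested. Of 573 fold changes of 41 other named genes, 480 stayed on their side of the threshold, called or not, 72 lost a call, 21 gained one and 0 reversed. With no replicate block the calls of TMC2, COL5A1, CHAD, DLX5, MEPE, SOST, NAV1 and KLF9 were lost and no other of these calls. Precision is limited by 7 dogs and 1 library for each tissue, and levels of a few reads cannot order the tumors.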
